A study of Mus musculus with 24 samples.

Results

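Neurog1, Neurog2, Neurog3, Neurod1, Neurod4, Atoh1, Olig1, Olig2 and Olig3 encode transcription factors with a basic helix-loop-helix (bHLH) domain and belong to the proneural and Olig families. These 9 genes were chosen by name, with earlier results of these data known, as were the gene lists below. All 9 were found among the 21909 gene symbols of the RNAseq tables. The study compared mouse embryonic stem cells (ESCs) of the E14 line with neural progenitor cells (NPCs) made from them, by RNAseq of 3 ESC and 3 NPC samples and by Nucleolar-DamID, which maps nucleolus-associated domains (NADs). Each RNAseq sample came from its own culture dish. The ESCs had no treatment and grew without feeder cells on gelatin, in a medium for which the labels give LIF and the 2i inhibitors of MEK and GSK3β. The NPCs were grown from ESCs as embryoid bodies in suspension, in a medium with fetal calf serum, for 8 days, and retinoic acid (2 µM) was present during the final 4 days. For Nucleolar-DamID, cells of both types expressed the methyltransferase Dam fused to histone H2B, with (H2B-Dam-NoLS) or without (H2B-Dam) a nucleolar localization signal, induced for 15 h by doxycycline (100 ng/ml) and Shield1 (1 µM). Cell type, medium, culture form and any batch go together in this design and cannot be told apart.

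bHLH factors bind DNA as dimers at a short motif, the E-box, and tissue-specific members pair with broadly expressed E proteins. In the neural tube, proneural factors such as the neurogenins and Atoh1 drive progenitors out of the cell cycle and into neuronal differentiation, and switch on Notch ligands that hold neighbouring cells in the progenitor state through Hes and Hey repressors. Id proteins bind E proteins without binding DNA and so hold bHLH activators back, and Olig factors act mostly as repressors in the patterning of the neural tube and in the making of motor neurons and oligodendrocytes.

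Levels are given in RPKM, reads scaled to the length of the gene and to all reads of the sample. The deposited values follow the length of the whole gene with its introns. On that length between 85.7% and 93.7% of the low values of 20003 genes with several exons came within 0.05 of whole reads, against 9.37% to 10.7% on the length of their exons (annotation GENCODE M21). Where levels are set between genes, RPKM is therefore multiplied by gene length over exon length and called exon-scaled RPKM, a step chosen after seeing the data. Exon-scaled values are approximate, as the annotation behind the deposited values is not given in the sources used here. ESC and NPC values stand in separate tables, and levels set across them rest on that scaling. Low values of 1267 genes with a single exon lay in steps of 1 read, from which the depth of the samples came to between 27.2 and 34.0 M reads (mega, SI prefix). Read numbers below follow from these steps and the gene lengths of GENCODE M21. ESC replicate 3 stood apart from the other ESC samples. Its log2(RPKM + 1) values over 7848 genes correlated with those of ESC replicates 1 and 2 with r = 0.963 and 0.966, against 0.998 between these, and its column summed to 141243 RPKM, against 105011 and 106892. Results are therefore also given without it. Among the NPC samples, r lay between 0.996 and 0.998.

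The labels were set against marker genes. All 7 ESC markers were lower in NPCs, with sums of 1142, 1153 and 1262 exon-scaled RPKM in the ESC samples and 19.2, 19.3 and 18.1 exon-scaled RPKM in the NPC samples. Nanog was the most abundant in ESC replicates 1 and 2 (321 and 315 exon-scaled RPKM, against 275 and 287 for Pou5f1) and Pou5f1 in ESC replicate 3 (427, against 302 for Nanog), whereas in NPCs Tbx3 made up most of the sum and Dppa3 was at 0. Of 7 markers of neural progenitors, 6 were higher in NPCs and Vim, the most abundant, was not called. Their sums were 73.0, 75.9 and 91.6 exon-scaled RPKM in ESCs and 145, 151 and 156 exon-scaled RPKM in NPCs, with none of the 7 at 0 there. The labels call the NPCs radial glial, and Pax6, a gene of radial glia, stood at 1.55, 1.42 and 1.67 RPKM in NPCs. Sox2, a factor of both cell types, was at 157, 154 and 142 RPKM in ESCs and at 6.82, 8.56 and 9.91 RPKM in NPCs.

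The NPC samples also held RNA of markers of other lineages. Of 7 mesoderm and endoderm markers 6 were higher in NPCs and 1 lower, with sums of 147, 151 and 153 exon-scaled RPKM against 4.18, 4.57 and 3.58 exon-scaled RPKM in ESCs. Gata4, the most abundant in NPCs, rose from 0.0375, 0.0424 and 0.0241 to 5.85, 5.83 and 6.02 RPKM, which is 110.0 exon-scaled RPKM on average, whereas T (brachyury), a gene of early mesoderm, fell from 0.964, 1.04 and 0.869 to 0.0164, 0.00909 and 0.0115 RPKM. Of 5 endothelium and blood markers 4 were higher and 1 lower, with sums of 38.6, 33.9 and 33.5 exon-scaled RPKM against 19.2, 18.6 and 14.6 exon-scaled RPKM in ESCs. Kdr, a receptor of endothelium, was the most abundant in NPCs at 2.94 ± 0.174 RPKM (mean ± SD, n = 3). The lower gene was Pecam1, an adhesion molecule of endothelium and the most abundant in ESCs, with 1.21, 1.17 and 0.929 RPKM in ESCs and 0.496, 0.407 and 0.396 RPKM in NPCs. None of these 12 markers was at 0 in NPCs. Several bHLH genes, Neurog3, Neurod1 and Atoh1 among them, are also used in endoderm, and the part of such cells in the levels below was not tested.

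In NPCs, 7 of the 9 genes were higher than in ESCs, Neurog3 was lower and Atoh1 was not called. Calls are those of limma at an adjusted p under 0.05 over 18360 genes above 0 RPKM in at least 1 sample, of which 39.5% were called higher and 22.9% lower. For the 7 genes all NPC values lay above all ESC values, which was so for 45.5% of all genes tested. The median difference of log2(RPKM + 1), NPC minus ESC, was 0.51 over the 9 genes and 0.01 over all genes tested. This scale adds 1 RPKM to every value and understates the change of genes with low levels. With quantile normalization the split of all calls moved from 7247 higher and 4208 lower to 5414 higher and 5935 lower. The 7 genes stayed above and Neurog3 below their ESC levels under this scaling and under trimmed mean scaling, although Olig3 lost its call under quantile normalization (limma, adjusted p = 0.188). In bulk samples fewer cells of a type and less RNA per cell cannot be told apart.

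**Figure D1:**
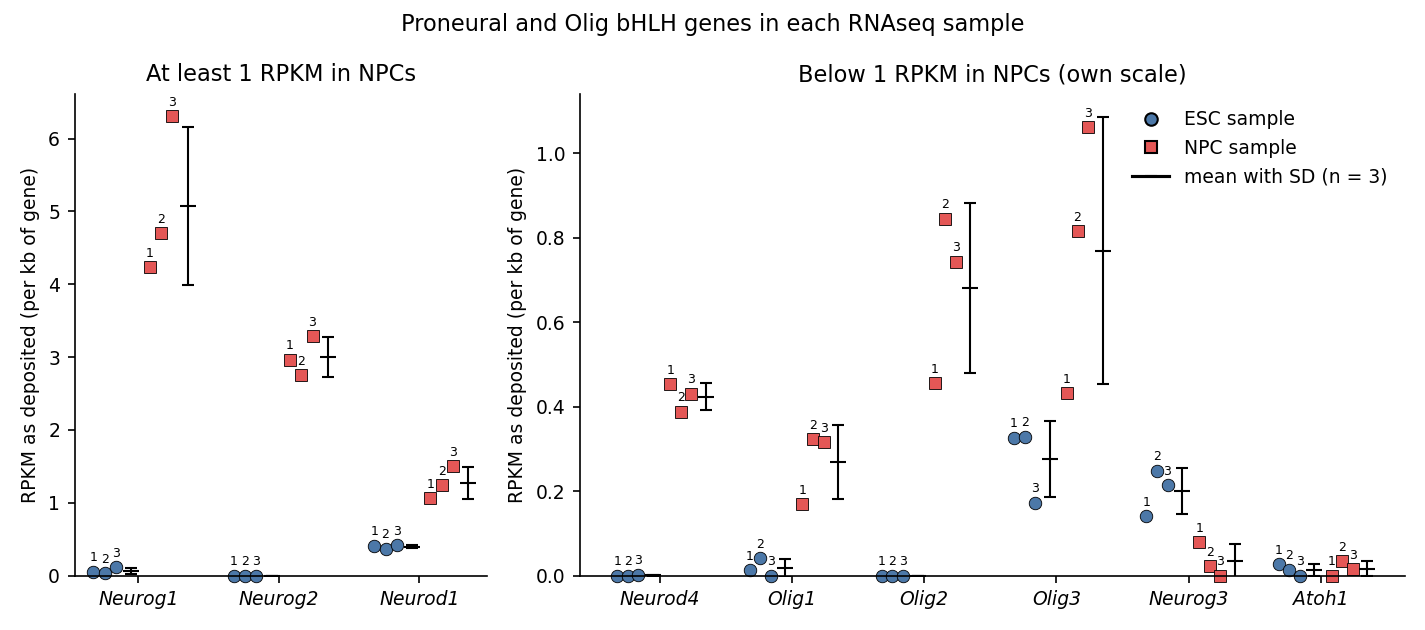
RPKM of the 9 genes in each ESC (circles) and NPC (squares) sample, numbered by replicate, with the mean and SD of each group of 3 and a separate linear axis for the 3 genes of at least 1 RPKM in NPCs. Values are per kb of the whole gene, so heights compare samples of 1 gene and not genes. Neurog1 reached 4.23 to 6.30 RPKM in NPCs, whereas Atoh1 stayed at or below 0.0346 RPKM in all samples.

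Neurog1 and Neurog2, the neurogenins of sensory ganglia, spinal cord and cortex, had the highest exon-scaled levels of the 9 genes in NPCs. Neurog1 was at 0.0523, 0.0352 and 0.116 RPKM in ESC replicates 1, 2 and 3 and at 4.23, 4.70 and 6.30 RPKM in NPC replicates 1, 2 and 3. The groups did not overlap, and NPC replicate 3 was the highest. The ESC values stood for 3, 2 and 6 reads and the NPC values for 215, 216 and 343 reads, so that the ratio of NPC over ESC was 77.3 (exact 95% interval 43.0 to 156, counting error only). Without ESC replicate 3, which holds 6 of the 11 ESC reads, it was 117 (49.9 to 361). This ratio and those of the other genes with a sample left out were chosen after seeing the data. The difference of log2(RPKM + 1) was 2.50 ± 0.13 (SE; limma, adjusted p = 3.63e-05).

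Neurog2 had no read in any ESC sample and was at 2.96, 2.75 and 3.29 RPKM in NPC replicates 1, 2 and 3, or 223, 187 and 265 reads. Its NPC samples lay close together and apart from all ESC samples. Against a floor of 3 reads over the ESC group, which is 0.0122 RPKM, it was at least 247-fold higher in NPCs, and the difference of log2(RPKM + 1) was 2.00 ± 0.06 (SE; limma, adjusted p = 5.87e-06). Within NPC replicates 1, 2 and 3 the exon-scaled level of Neurog1 exceeded that of Neurog2 by 1.27, 1.53 and 1.71 times.

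Neurog3, the neurogenin of endocrine precursors in pancreas and gut, went the other way. It was at 0.140, 0.248 and 0.214 RPKM in ESC replicates 1, 2 and 3 and at 0.0793, 0.0219 and 0 RPKM in NPC replicates 1, 2 and 3. All ESC values lay above all NPC values, on 8, 14 and 11 reads against 4, 1 and 0. The ratio of ESC over NPC was 6.01 (exact 95% interval 2.33 to 19.7). It rested on few NPC reads and was 19.9 (3.34 to 811) without NPC replicate 1 and 3.84 (1.49 to 12.6) without NPC replicate 3. The value of log2(RPKM + 1) fell by 0.22 (SE 0.04; limma, adjusted p = 0.00765). Neurog3 shares 273 exon bases with Fam241b on the opposite strand. As the use of strand in counting is not given in the sources used here, reads of the 2 genes in this stretch cannot be told apart.

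Neurod1 and Neurod4, which act after the neurogenins in differentiating neurons, were both higher in NPCs. Neurod1 was at 0.410, 0.371 and 0.415 RPKM in ESC replicates 1, 2 and 3 and at 1.07, 1.24 and 1.50 RPKM in NPC replicates 1, 2 and 3. The ESC values stood for 59, 53 and 54 reads and the NPC values for 136, 143 and 205 reads. Neurod1 had the highest exon-scaled ESC level of the 9 genes, and its ratio of NPC over ESC, 3.20 (exact 95% interval 2.68 to 3.85), was far below that of Neurog1. The difference of log2(RPKM + 1) was 0.69 ± 0.08 (SE; limma, adjusted p = 0.000719). Neurod1 shares 201 exon bases with Cerkl on the same strand, which did not exceed 0.00728 RPKM in any sample, and 154 with the antisense lincRNA Gm26755, and is uncertain to that extent.

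Neurod4 was at 0, 0 and 0.00269 RPKM in ESC replicates 1, 2 and 3, which is 1 read in all, and at 0.453, 0.388 and 0.430 RPKM in NPC replicates 1, 2 and 3, or 165, 128 and 168 reads. The NPC values had the smallest relative spread of the 9 genes, with an SD of 7.70% of the mean. With a single ESC read the ratio of NPC over ESC, 507, had an exact 95% interval of 90.5 to 20053. It was 331 (59.2 to 13124) without ESC replicate 1 and 333 (59.5 to 13191) without ESC replicate 2. Without ESC replicate 3 no ESC read was left, and Neurod4 was at least 116-fold higher in NPCs against a floor of 3 reads over the other ESC samples. The difference of log2(RPKM + 1) was 0.51 ± 0.02 (SE; limma, adjusted p = 8.59e-06).

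Atoh1, the proneural factor of hair cells, cerebellar granule cells and gut secretory cells, was at 0.0277, 0.0140 and 0 RPKM in ESC replicates 1, 2 and 3 and at 0, 0.0346 and 0.0146 RPKM in NPC replicates 1, 2 and 3. These were 3 reads in each group, and the groups overlapped. No difference was detectable at this depth (difference of log2(RPKM + 1) 0.0035 ± 0.016, SE; limma, adjusted p = 0.862), and no ratio is given because both groups were at the floor.

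The Olig genes were all called higher in NPCs and were all lowest there in replicate 1. Olig2, needed for motor neurons and oligodendrocytes, had no read in ESCs and was at 0.456, 0.845 and 0.743 RPKM in NPC replicates 1, 2 and 3. Its values were not whole reads on the gene length used here, so that its read numbers and floor are approximate. It was at least 71.6-fold higher in NPCs against a floor of 3 reads over the ESC group, with a difference of log2(RPKM + 1) of 0.74 ± 0.09 (SE; limma, adjusted p = 0.000935). Olig1, its neighbour on chromosome 16 and a factor of oligodendrocyte maturation, was at 0.0136, 0.0412 and 0 RPKM in ESC replicates 1, 2 and 3 and at 0.169, 0.322 and 0.315 RPKM in NPC replicates 1, 2 and 3. The groups did not overlap, and NPC replicate 1 was the lowest NPC sample for both genes. Olig1 had 4 reads in the ESC samples together and 11, 19 and 22 in the NPC samples, a ratio of 14.3 with an exact 95% interval of 5.26 to 54.4. Without ESC replicate 2, which holds 3 of the 4 ESC reads, it was 37.6 (6.46 to 1513). The difference of log2(RPKM + 1) was 0.32 ± 0.05 (SE; limma, adjusted p = 0.00351). Within NPC replicates 1, 2 and 3 Olig1 was at 0.291, 0.300 and 0.333 times the exon-scaled level of Olig2. Olig1 shares 157 exon bases with the antisense lincRNA Gm15966.

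Olig3, a factor of dorsal spinal cord progenitors, was already present in ESCs. It was at 0.326, 0.329 and 0.173 RPKM in ESC replicates 1, 2 and 3 and at 0.432, 0.815 and 1.06 RPKM in NPC replicates 1, 2 and 3. The groups did not overlap, but NPC replicate 1 lay only just above ESC replicate 2, and ESC replicate 3 was the lowest of all samples. The ratio of NPC over ESC was 2.78 (exact 95% interval 2.03 to 3.84) and the difference of log2(RPKM + 1) was 0.46 ± 0.14 (SE; limma, adjusted p = 0.0371). This call was the least stable of the 8. The adjusted p (limma) was 0.0722, 0.0729 and 0.0873 without ESC replicates 1, 2 and 3, and 0.105 and 0.0826 without NPC replicates 2 and 3. Over 15 alternative settings it was between 0.00613 and 0.188, and under the threshold in 7. The calls of Neurog1, Neurog2, Neurog3, Neurod1, Neurod4, Olig1 and Olig2 were kept without ESC replicate 3.

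In NPCs the mean exon-scaled levels fell in the order Neurog1, Neurog2, Neurod1, Neurod4, Olig2, Olig3, Olig1, Neurog3 and Atoh1, from 5.08 ± 1.09 to 0.0164 ± 0.0174 exon-scaled RPKM (mean ± SD, n = 3). Olig2 (0.867 ± 0.256) and Olig3 (0.770 ± 0.317) overlapped sample by sample, as did Neurog3 and Atoh1, whereas the other neighbours in this order did not. The lowest NPC value of Neurod1, 1.65 exon-scaled RPKM, lay only just above the highest of Neurod4, 1.64. This order depends on the length used. In RPKM as deposited Neurod4 (0.424 ± 0.0326), whose gene is 3.61 times as long as its exons, came after Olig3 and Olig2. In ESCs Neurod1 led with 0.618 ± 0.0367 exon-scaled RPKM, ahead of Olig3 with 0.276 ± 0.0896, Neurog3 with 0.201 ± 0.0550 and Neurog1 with 0.0677 ± 0.0424. There Olig3 and Neurog3 overlapped, as did each pair of neighbours from Neurog1 downwards. Without ESC replicate 3, a setting chosen after seeing the data, Olig3 (0.328) no longer overlapped Neurog3 (0.194), and Neurod4 joined Neurog2 and Olig2 at 0. A mean of 1 was reached in NPCs by 3 genes in RPKM and by 4 in exon-scaled RPKM, and in ESCs by 0 genes on either scale. The 9 genes together summed to 1.20, 1.24 and 1.15 exon-scaled RPKM in ESCs and to 12.1, 13.4 and 16.2 exon-scaled RPKM in NPCs.

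Genes with the most similar pattern were sought for the 3 members of at least 1 RPKM as deposited, as the smallest Euclidean distance of log2(RPKM + 1) over the 6 samples. The distance uses RPKM as deposited and not exon-scaled RPKM, so the genes found depend on gene length with introns. The nearest to Neurog1 were Dbx1, a homeobox factor of the spinal cord, at a distance of 0.211, and Igdcc3 at 0.300. Dbx1 was at 0 in all ESC samples and at 4.39, 5.04 and 6.02 RPKM in NPC replicates 1, 2 and 3. In exon-scaled RPKM these were 11.2, 12.9 and 15.4, against 4.23, 4.70 and 6.30 for Neurog1, so their levels are alike only as deposited. The nearest to Neurog2 were Cntfr, a subunit of the CNTF receptor, at 0.0708, and Sertad4 at 0.143. Neurod1 was closest to Cdk5r2, an activator of the neuronal kinase Cdk5, at 0.115, and to Zfp787 at 0.168. Without ESC replicate 3 the same genes were nearest, except that Prag1 took the place of Zfp787.

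Other neural bHLH factors were mostly higher in NPCs too. Of 12 such genes 10 were detected, of which 8 were called higher and none lower, with a median difference of log2(RPKM + 1) of 0.77, against 0.01 over all genes tested. Neurod6 and Ferd3l were at 0 in all samples, and Neurod2 had a single value above 0, 0.00784 RPKM. Nhlh2, a bHLH factor of postmitotic neurons, went from 0 in all ESC samples to 3.96, 3.05 and 4.00 RPKM in NPCs.

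The E proteins, the dimer partners of the proneural factors, differed in level among themselves. All 3 E protein genes were higher in NPCs, and the median difference of log2(RPKM + 1) was 0.53. Tcf3 was at 9.78, 10.8 and 8.92 RPKM in ESCs and at 12.7, 15.8 and 15.6 RPKM in NPCs. Tcf12 went from 0.173, 0.161 and 0.0774 to 1.33, 1.21 and 1.19 RPKM, and Tcf4 from 0.374, 0.363 and 0.294 to 0.532, 0.463 and 0.488 RPKM. Tcf3, at 58.4, 64.7 and 53.3 exon-scaled RPKM in ESCs and 75.9, 94.3 and 93.4 in NPCs, was above each of the 9 genes in every sample.

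Of the Id inhibitors, Id1, Id2 and Id3 had far higher exon-scaled levels in NPCs, of 53.9 or more, than any of the 9 genes. Id3 rose from 4.99, 5.71 and 6.00 RPKM in ESCs to 127, 146 and 143 RPKM in NPCs. Id2 rose from 1.25, 1.16 and 0.943 to 70.5, 68.9 and 71.0 RPKM, and Id1 from 3.37, 3.53 and 6.08 to 53.9, 69.2 and 69.0 RPKM. Id4 fell, from 3.89, 3.06 and 3.79 RPKM to 1.21, 1.20 and 1.03 RPKM. The differences of log2(RPKM + 1) were 4.41, 5.07, 3.64 and -1.09 for Id3, Id2, Id1 and Id4, with adjusted p between 1.55e-06 and 0.000207 (limma). In this list 3 of 4 genes were higher and 1 lower, with a median of 4.02.

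Of 8 Hes and Hey repressor genes 7 were higher in NPCs and none lower, with a median difference of log2(RPKM + 1) of 0.80. Hey1 had the largest rise on the log2(RPKM + 1) scale, from 0.445, 0.464 and 0.609 RPKM to 31.3, 36.3 and 36.2 RPKM. Hes5, the Notch target of neural progenitors, was at 0 in all ESC samples and at 2.50, 3.57 and 3.51 RPKM in NPCs, lowest in replicate 1 like the Olig genes. Hes1 was not called, with 12.2, 12.2 and 17.0 RPKM in ESCs and 12.3, 13.7 and 13.1 RPKM in NPCs (limma, adjusted p = 0.728). Hes6, which counters Hes1 and is itself induced by neurogenins, rose from 3.31, 3.38 and 5.18 to 8.10, 9.16 and 10.3 RPKM.

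Notch ligands and modifiers, which proneural factors regulate in part, were higher in 6 of 8 cases and lower in 1, with a median of 0.66. Dll4 rose from 0, 0 and 0.0128 RPKM to 3.10, 2.71 and 2.52 RPKM, and Dll1 from 0.0216, 0.0218 and 0.0171 RPKM to 1.33, 1.51 and 1.92 RPKM. Rfng, a modifier of Notch, fell from 15.6, 16.1 and 16.7 RPKM to 5.82, 6.20 and 6.28 RPKM. Without ESC replicate 3, a setting chosen after seeing the data, 2 genes of this list were lower. Dll4 is also a ligand of endothelial cells. Of the 5 endothelium and blood markers 4 were higher and 1 lower in the same samples, and the part of such cells in the level of Dll4 was not tested.

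Among 20 genes downstream of proneural factors, 16 were higher in NPCs and 2 lower, with a median of 0.42. Gadd45g rose from 0.738, 0.778 and 1.31 to 7.84, 9.71 and 11.2 RPKM, and Insm1, a zinc finger factor of newborn neurons and endocrine cells, from 0.0474, 0.0383 and 0.0210 to 1.93, 1.87 and 2.26 RPKM. The 2 lower genes were Tubb3, the tubulin of young neurons, with 6.42, 7.57 and 7.86 RPKM in ESCs and 4.47, 3.56 and 4.41 RPKM in NPCs, and Eomes, with 0.979, 1.03 and 0.689 RPKM against 0.289, 0.380 and 0.309 RPKM. Without ESC replicate 3, a setting chosen after seeing the data, 4 genes of this list were lower. Of 7 neuronal markers, 4 of which are also in this list, 5 were higher and Tubb3 and Stmn2 lower. Their sums were 80.7, 86.7 and 106 exon-scaled RPKM in ESCs, where Stmn2 was the most abundant, and 47.3, 38.6 and 45.1 exon-scaled RPKM in NPCs, where Tubb3 was. Dcx, a marker of migrating neurons, was at 0 in all ESC samples and at 1.05, 0.821 and 0.874 RPKM in NPCs.

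**Figure D2:**
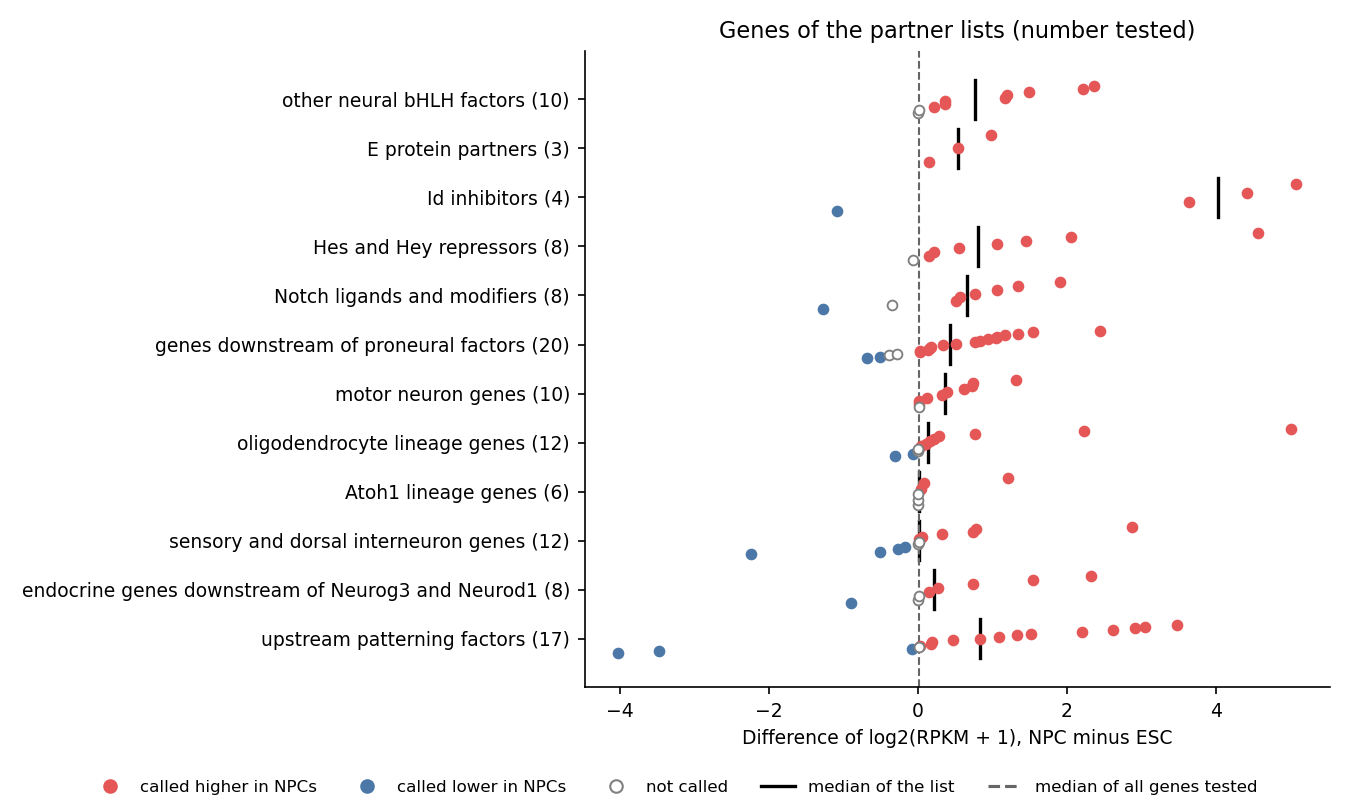
Difference of log2(RPKM + 1), NPC minus ESC, of each tested gene of the 12 lists, coloured by its limma call, with the median of each list and of all genes tested. Id inhibitors have the highest median, 4.02, and sensory and dorsal interneuron genes the lowest, 0.01.

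Genes of the lineages that the members are known to specify are given beside the shares over all genes tested, 39.5% higher and 22.9% lower. Of 10 motor neuron genes 9 were called higher and none lower, with a median of 0.36, or 0.35 with genes at 0 in ESCs set to the floor of 3 reads. Lhx3 reached 1.05, 1.86 and 1.63 RPKM in NPCs, lowest in replicate 1 like Olig2, and Isl1 reached 0.768, 0.662 and 0.776 RPKM. Chat, the enzyme that makes acetylcholine, was at most 0.0132 RPKM.

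Of 12 oligodendrocyte lineage genes 8 were higher and 2 lower, with a median of 0.14. Myrf, a regulator of myelin genes that is also expressed outside the nervous system, rose from 0.0253, 0.0347 and 0.0270 to 30.3, 33.5 and 32.4 RPKM. Pdgfra, a receptor of oligodendrocyte precursors and of mesoderm, rose from 0.0243, 0.0213 and 0.0120 to 5.06, 3.32 and 3.21 RPKM. Unlike Olig2, it was highest in NPC replicate 1. Cnp and Mog, genes of mature oligodendrocytes, were lower in NPCs, Cnp at 0.772 ± 0.0985 against 1.20 ± 0.0636 RPKM and Mog at 0.0517 ± 0.00615 against 0.104 ± 0.0338 RPKM (mean ± SD, n = 3).

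Among 6 genes of Atoh1 lineages 3 were higher and none lower, with a median of 0.02. Lhx2, which has roles in many tissues, was at 1.54, 1.43 and 1.20 RPKM in NPCs, and Lhx9 at 0.0383, 0.0690 and 0.0754 RPKM. Barhl1, Barhl2 and Pou4f3 were not called and stayed at or below 0.0327 RPKM.

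Sensory and dorsal interneuron genes moved both ways, with 6 of 12 higher, 4 lower and a median of 0.01. Lhx1 rose to 6.01, 5.99 and 7.07 RPKM and Lhx5 from 0 to 0.731, 0.689 and 0.718 RPKM. Foxd3 fell from 7.65, 8.14 and 7.16 to 0.871, 0.805 and 0.813 RPKM, and Pou4f1 from 0.776, 0.745 and 0.673 to 0.189, 0.238 and 0.220 RPKM. Foxd3 is a factor of both ESCs and neural crest. Of 4 neural crest markers 2 were higher and 2 lower, and their sums were 10.6, 11.1 and 9.32 exon-scaled RPKM in ESCs, mostly Foxd3, and 2.44, 2.42 and 2.43 exon-scaled RPKM in NPCs, where Foxd3 and Tfap2b had similar levels that overlapped between samples.

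Of 11 endocrine genes downstream of Neurog3 and Neurod1, 8 were detected, of which 5 were higher and 1 lower, with a median of 0.21, also with genes at 0 in ESCs at the floor. Pax4, Ins1 and Ins2 were at 0 in all samples. Sst, the gene of the hormone somatostatin, which neurons also make, reached 3.31, 4.41 and 4.56 RPKM in NPCs. Chga, a granule protein, fell from 1.07, 1.17 and 1.54 to 0.162, 0.215 and 0.249 RPKM.

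Patterning factors that act upstream of the members were higher in 13 of 17 cases and lower in 3, with a median of 0.83. Sox9 rose from 0.0212, 0.0107 and 0.0293 to 9.92, 10.8 and 10.5 RPKM, and Msx3, a homeobox gene of the dorsal neural tube, from 0.0200, 0.0303 and 0.0443 to 6.30, 7.69 and 8.73 RPKM. Apart from Sox2, the largest fall on the log2(RPKM + 1) scale was that of Nkx6-2, from 9.52, 10.3 and 14.8 to 0.0679, 0.0858 and 0.154 RPKM. Of 4 astrocyte markers S100b was higher, Aldh1l1 lower and Gfap and Aqp4 were not called. Their sums, 12.7, 13.2 and 16.1 exon-scaled RPKM in ESCs and 0.441, 0.669 and 0.448 in NPCs, were nearly all Aldh1l1 in ESCs (14.0 on average), which was also the most abundant in NPCs.

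The position of the genes relative to NADs was read from the deposited lists of 1769 NADs in ESCs and 1447 in NPCs, each with 1 score per NAD and no replicate values. On GRCm38, Neurod1 (chromosome 2, 79452521 to 79456751, minus strand) and Neurod4 (chromosome 10, 130268152 to 130280240, minus strand) lay inside a NAD of ESCs, and none of the 9 genes overlapped a NAD of NPCs. Of all genes with a position, 27.1% overlapped a NAD of ESCs and 21.6% a NAD of NPCs. The NAD around Neurod1 spanned 77899753 to 80700547 with a score of 0.0227, and the gene lay 1553 kb from its start and 1244 kb from its end. In NPCs 4 NADs covered 42.9% of this span, and Neurod1 lay in a gap of 400.4 kb between them, 43.3 kb from the nearer NAD. The NAD around Neurod4 spanned 129499197 to 130400237 with a score of 0.0239. Here 2 NADs of NPCs covered 22.1% of the span, and Neurod4 lay 19.8 kb from the nearer one. The authors called NADs at a resolution coarser than 43.3 kb and 19.8 kb. Whether Neurod1 and Neurod4 lie outside the NADs of NPCs is therefore uncertain. The scores of the NADs of ESCs around Neurod1 and Neurod4 were below the median of the ESC list, 0.0256. With NADs below the median left out, 0 of 9 genes therefore lay in a NAD of ESCs. The share of all genes under this cut is not given here, so the count is not a result about the 9 genes. In ESCs Neurod1 had the highest exon-scaled level of the 9 genes and Neurod4 had 1 read. The relation of NAD position to level was not tested.

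**Figure D3:**
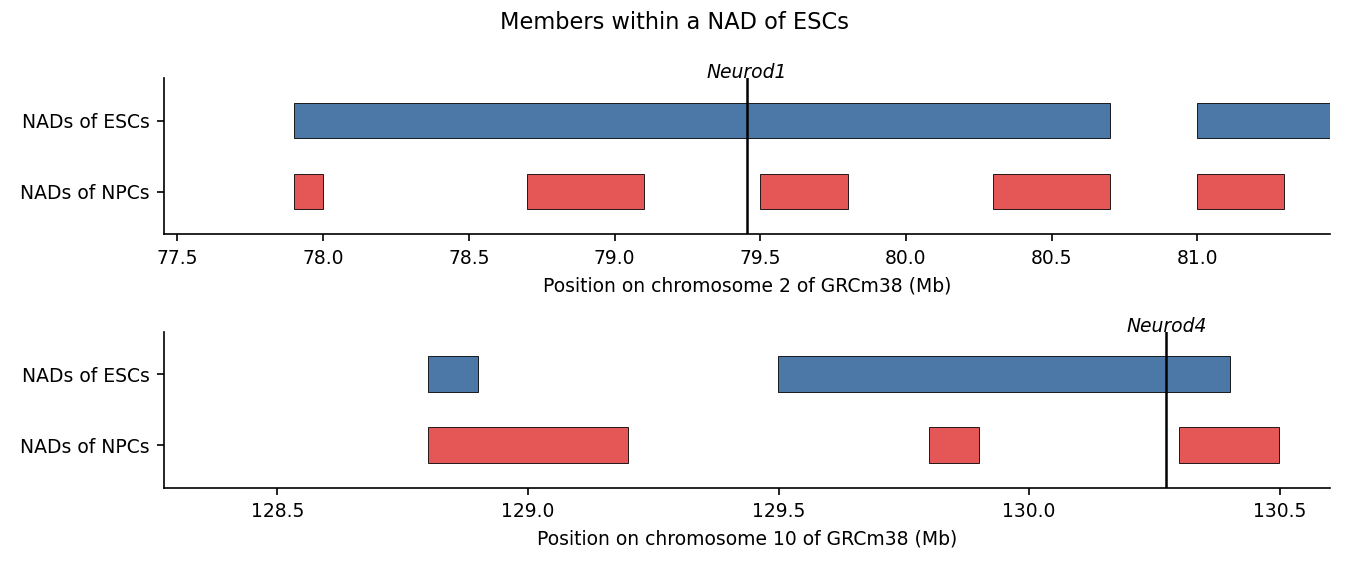
NADs of ESCs (upper row) and of NPCs (lower row) around Neurod1 and Neurod4, with position on GRCm38 in Mb and the gene marked by a vertical line. Each gene lies inside a NAD of ESCs and in a gap between NADs of NPCs, 43.3 kb and 19.8 kb from the nearest. These distances are finer than the resolution at which NADs were called.

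The other genes were farther from NADs. Olig3 (chromosome 10, 19356533 to 19358604) was 57.0 kb from a NAD of NPCs and 856 kb from the nearest NAD of ESCs, and Atoh1 (chromosome 6, 64729125 to 64731245) was 129 kb and 629 kb away. The 57.0 kb of Olig3 is also finer than the resolution of the NADs. Neurog2 (chromosome 3, 127633135 to 127635631) was 365 kb from a NAD of ESCs and 733 kb from one of NPCs, and Neurog3 (chromosome 10, 62133090 to 62134763) 565 kb and 933 kb. Neurog1 (chromosome 13, 56250478 to 56252163) was 950.2 kb from a NAD of ESCs and 951 kb from one of NPCs. The farthest were Olig2 (chromosome 16, 91225457 to 91228677), 1725 kb and 1826 kb from the nearest NAD of ESCs and of NPCs, and Olig1 (chromosome 16, 91269772 to 91271933), 1769.8 kb and 1869.8 kb.

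Promoter windows from RefSeq (GRCm38.p6) were found for 8 of the 9 genes, all but Olig1, and the 250 bases before each annotated start were searched on both strands. The E-box CANNTG occurred in 3 of 9 windows, Neurod4 having 2, and in 66.2% of 32851 windows of the same length over all genes. The matches were CATATG in Neurod1, CAGCTG in Neurog3 and CAACTG in Olig3, 1 in each. CATATG occurred in 3.46% and CAGCTG in 13.0% of all windows. Neither CAGATG nor its complement CATCTG, the form that neurogenins and Neurod factors are known to prefer, was in a window of the 9 genes, and 14.4% of all windows held it. The windows of the 3 neurogenins, which moved in different directions, are shown with CANNTG in capitals: Neurog1 on the minus strand at chr13:56252181-56252430, Neurog2 on the plus strand at chr3:127632886-127633135 and Neurog3 on the plus strand at chr10:62132840-62133089. Only that of Neurog3 has a match, and the absence of these letters says nothing about binding.
Neurog1: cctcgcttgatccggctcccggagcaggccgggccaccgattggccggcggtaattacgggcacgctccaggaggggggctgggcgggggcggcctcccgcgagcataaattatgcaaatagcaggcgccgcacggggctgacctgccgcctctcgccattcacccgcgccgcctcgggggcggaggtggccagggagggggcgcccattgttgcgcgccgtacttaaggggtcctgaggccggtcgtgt
Neurog2: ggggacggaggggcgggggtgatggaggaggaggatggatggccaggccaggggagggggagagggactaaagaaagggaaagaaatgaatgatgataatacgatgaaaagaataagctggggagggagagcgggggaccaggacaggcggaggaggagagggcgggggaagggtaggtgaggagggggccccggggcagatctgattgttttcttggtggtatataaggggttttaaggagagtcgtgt
Neurog3: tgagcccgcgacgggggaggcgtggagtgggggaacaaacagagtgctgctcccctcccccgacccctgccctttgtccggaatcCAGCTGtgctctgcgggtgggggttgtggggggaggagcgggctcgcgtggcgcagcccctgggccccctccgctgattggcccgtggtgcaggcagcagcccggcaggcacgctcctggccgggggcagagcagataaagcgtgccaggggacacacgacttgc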

How the data were processed

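RNAseq values were deposited as RPKM: the authors filtered rRNA (SortMeRNA), trimmed reads (Trimmomatic), mapped them to mm10 (STAR) and scaled exon coverage per gene, by values to the whole gene length. The NAD score is that of the authors, from log2 ratios of H2B-Dam-NoLS over H2B-Dam (Bowtie2, damidseq), with NADs common to 2 experiments. Not given in the sources used here: annotation, use of strand, treatment of intron reads. The labels name a kit that does not mark strand and the methods a kit that does. Lines of the same symbol were summed. The 9 genes and all lists were chosen with earlier results of these data known. Calls come from limma 3.58.1 in R 4.3.3 (lmFit, eBayes with trend) on log2(RPKM + 1), Benjamini-Hochberg adjusted over 18360 genes and tested on simulated data, with p-values that measure the spread between dishes. Replicates of a group differed by more than sampling noise. Named genes were the members, E proteins, Id genes, Hes1, Hes5 and Hes6, up to 4 called genes per list (the extremes, 2 in each direction), and the 2 most alike to each member of at least 1 RPKM. Some results are not reported here. Others were named after their values were seen. Between 92.9% and 96.8% of low values of the 1267 genes with a single exon lay within 0.05 of whole reads. NAD starts count from 0 and are printed 1 higher. Intervals and floors cover counting error only. Other steps used Python 3.11.15 with pandas 2.3.3 and scipy 1.17.1.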

Additional observations from a re-analysis of the deposited data

How the results depend on the processing

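The calls of Neurog1, Neurog2, Neurog3, Neurod1, Neurod4, Olig1 and Olig2 kept their direction and stayed under the threshold in every setting in which the gene was tested, among them pseudocounts of 0.1 and 0.5 RPKM, trimmed mean scaling, quantile normalization and each sample left out. Quantile normalization moved the difference of Neurod1 from 0.69 to 0.44, of Olig1 from 0.32 to 0.21 and of Neurog3 from -0.22 to -0.34. With it Neurog1, Neurog2, Neurod4 and Olig2 were at 2.45, 1.94, 0.40 and 0.62. Olig3 missed the threshold with quantile normalization (difference of log2(RPKM + 1) 0.23, limma adjusted p = 0.188) and eBayes without trend (0.46, adjusted p = 0.0577), and the cause was not tested. With the replicate number as a replicate block the difference was 0.46 and the adjusted p 0.0797, and 6682 genes were called higher and 3758 lower. Deviations of same-numbered samples from their group means correlated with r = 0.113, -0.0826 and 0.0315, and those of other pairs with r between -0.0894 and 0.0891. With 3 samples in a group, these values cannot decide whether the numbers pair the samples. Leaving out 1 sample in turn gave differences between 0.34 and 0.60 for Olig3, which was called only without NPC replicate 1, and between -0.0094 and 0.0152 for Atoh1, which was not called in any setting and was below 0 with quantile normalization (-0.0226), without ESC replicate 3 (-0.0064) and without NPC replicate 2 (-0.0094). Trimmed mean scaling raised the median difference of 7848 genes by 0.15. This median is over genes of at least 1 RPKM in at least 3 samples. Less the shift, the neurogenins were at 2.44 (Neurog1), 1.93 (Neurog2) and -0.34 (Neurog3), and Neurod1 and Neurod4 at 0.63 and 0.39. Olig1, Olig2 and Olig3 were at 0.19, 0.64 and 0.37, and Atoh1 was at -0.14. Subtracting the shift overcorrects genes near 0 RPKM, which move little on this scale. Trimmed mean scaling itself moved Atoh1 only from 0.0035 to 0.0063, Neurog3 from -0.22 to -0.20 and Olig1 from 0.32 to 0.34. The -0.14 of Atoh1 is therefore almost wholly the shift and no sign of a fall. Neurog1, Neurog2 and Neurod1 are themselves among the 7848 genes, through their NPC values only. The values less the shift were not tested.

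With genes of at least 1 RPKM in at least 3 samples, 2898 of 7848 genes were called higher and 2611 lower, and 3 members (Neurog1, Neurog2, Neurod1) passed, each only through its NPC values, so that their 3 higher and 0 lower calls follow from the filter. By construction of this filter, list calls fell to 5 of other neural bHLH factors, 2 of E proteins and 4 of Hes and Hey repressors. They fell to 3 of Notch ligands and modifiers, 7 downstream of proneural factors, 1 of motor neurons and 3 of oligodendrocytes. They also fell to 1 of Atoh1 lineages, 2 of sensory and dorsal interneurons, 3 endocrine and 10 patterning genes. All 4 Id inhibitors were still called. With levels rescaled to exon length, a setting chosen after seeing the data, 7369 genes were called higher and 4361 lower, no call of a member changed, and the ESC means of Neurod1 and Neurod4 became 0.618 and 0.00324 RPKM by construction. With NADs of at least the median score 0 members lay in a NAD of ESCs, a count with no share of all genes beside it. Depth limits Atoh1, with 3 reads a group, the ESC levels of Neurog1, Neurod4 and Olig1, the NPC level of Neurog3, and Neurog2 and Olig2 in ESCs, which had no read there.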
